A study of Mus musculus with 24 samples.

Results

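The sine oculis homeobox (for example Six2), eyes absent (Eya) and dachshund (Dach) genes encode transcription factors and cofactors that act together in many embryonic organs. Levels are given here for 9 of them, namely Six2, Six4, Six5, Eya1, Eya2, Eya3, Eya4, Dach1 and Dach2, chosen by name from the 56748 genes of the count table; other sine oculis homeobox genes were not analysed here. The 24 RNA-seq libraries, 3 in each of 8 groups, came from the dental mesenchyme of first mandibular molar germs of ICR mice. The labels name no mutation and no added agent in any group. Cap-W and Bell-W are labelled as whole germs and hold the undivided mesenchyme at the cap stage (E13) and the bell stage (E15). Cap-L, Cap-B, Bell-L and Bell-B are the lingual and buccal parts at these stages, separated with a fine needle, and the groups cultured in vitro for 2 days from the cap stage are Cap-L+2D (lingual) and Cap-B+2D (buccal). Embryos of several litters were used, and the sources do not tie libraries to animals, so p-values measure the spread between libraries, which may be technical.

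Six2 and its relatives bind DNA through a homeodomain. Eya proteins do not bind DNA themselves but join these factors as coactivators and also carry a phosphatase activity. Dach proteins, relatives of the Ski corepressors, act mostly as corepressors in the same complexes. The network is best known from eye, ear, kidney and muscle development, where Pax genes lie upstream of it. In the kidney, Six2 keeps nephron progenitors undifferentiated, and Eya1 is required for the first outgrowth of the ureteric bud.

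Library totals lay between 20581720 and 39266497 counts, and all values below are normalized CPM (counts scaled to 1000000 per library after TMM normalization over 24 libraries) unless stated otherwise. Every member passed the filter on low counts in each comparison, and no exon of a member overlapped another gene. Counts in pairs of replicate libraries of the divided parts differed by 1.32 to 9.85 times the sampling variance. The undivided mesenchyme was more variable. Cap-W replicate 1 differed from the other Cap-W libraries by 161 and 124 times the sampling variance, and Bell-W replicate 3 from the other Bell-W libraries by 61.8 and 55.0 times. The summed level of 8 epithelial markers was 1849 in Bell-W replicate 3 against 544 and 466 in the other Bell-W libraries. The 10 dental mesenchyme markers passed the filter in every comparison and summed to between 3200 and 4549 in all libraries, but single markers moved. Between Cap-B and Cap-B+2D, 1 of the 10 was called higher and 3 lower, with a median log2 fold change of -0.46. Over that step the mean of Vim went from 1161 to 2103 and that of Msx1 from 483 to 209. In bulk tissue, fewer expressing cells and less RNA per cell cannot be told apart.

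Scaled to exon length, Six2 was the most abundant member in every group. Its mean level was 126 ± 7.04 CPM per kb in Cap-L and 53.1 ± 0.863 in Cap-B (SD, n = 3). It made up 77.5% of the summed length-scaled level of Six2, Six4 and Six5 in Cap-L, 56.9% in Cap-B and 49.8% in Cap-B+2D. Six5, whose human counterpart lies beside the myotonic dystrophy gene DMPK, followed with 24.3 to 36.3 CPM per kb. Among the Eya genes, Eya3 ranked first by mean length-scaled level in 7 of the 8 groups and Eya1 in Cap-W. In the Cap-W libraries Eya1 stood at 22.4, 16.16 and 17.44 CPM per kb and Eya3 at 17.09, 17.08 and 17.55. Eya1 was thus above Eya3 in Cap-W replicate 1 alone. In Cap-B the length-scaled levels of Eya3 and Eya1 were 14.61 ± 0.176 and 14.59 ± 0.333, so that their order was within the spread between libraries. Dach1 held at least 93.2% of the length-scaled Dach sum in each group.

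**Figure D1:**
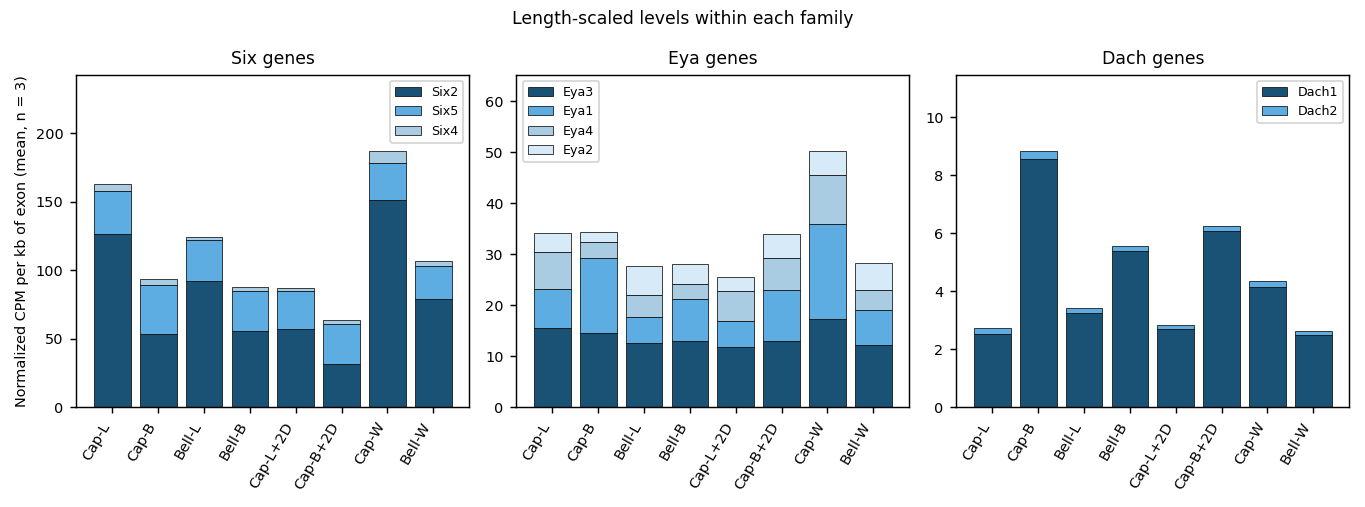
Stacked bars of length-scaled levels (mean normalized CPM per kb of exon, n = 3 libraries) of the 9 members in the 8 groups, with a separate axis for each family. Six2 fills 77.5% of the bar of its family in Cap-L and 49.8% of it in Cap-B+2D, and Dach1 fills nearly all of each Dach bar.

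Lingual and buccal mesenchyme were compared first at the cap stage, to ask which members mark a side. Six2, Eya4 and Eya2 were higher in the lingual part, and Dach1 and Eya1 were higher in the buccal part. Thus 5 of the 9 members were called by edgeR's quasi-likelihood test (Benjamini-Hochberg adjusted p under 0.05 and absolute log2 fold change over 0.5), against 17.5% of all genes tested. The libraries of the sides did not overlap for 8 members, against 52.4% of all genes. The median absolute log2 fold change was 0.90 over the members and 0.19 over all genes tested.

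Six2 (chr17:85991705-85995702, minus strand, GRCm39) stood at 260.8, 284.5 and 256.9 in the Cap-L libraries and at 113.8, 113.2 and 110.4 in the Cap-B libraries. All Cap-L libraries lay above all Cap-B libraries, with a log2 fold change, buccal over lingual, of -1.23 ± 0.047 (SE, adjusted p = 2.18e-13). Dach1 (chr14:98024289-98407201, minus strand) showed the reverse. Its Cap-L values were 18.2, 17.4 and 20.0 and its Cap-B values 63.6, 60.8 and 63.6. The log2 fold change of Dach1 was 1.79 ± 0.0587 (adjusted p = 2.29e-14), the widest side difference of any member.

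Eya4 (chr10:22978862-23226684, minus strand), which is known from hereditary hearing loss, stood at 68.5, 64.1 and 73.1 in Cap-L and 30.8, 30.9 and 29.9 in Cap-B (log2 fold change -1.14 ± 0.057, adjusted p = 9.64e-12). Eya1 (chr1:14239178-14380459, minus strand), whose loss causes branchio-oto-renal syndrome, differed in the other direction. It stood at 61.4, 54.7 and 61.7 in Cap-L and 113.6, 111.5 and 116.7 in Cap-B (0.97 ± 0.0525, adjusted p = 3.27e-11). Paralogues of the same coactivator family thus marked opposite sides. Eya2 (chr2:165436952-165613647, plus strand) was less abundant, with 11.3, 10.4 and 11.4 in Cap-L against 5.69, 6.41 and 5.26 in Cap-B (-0.90 ± 0.096, adjusted p = 4.12e-07).

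The other members were not called between the sides. Six4 (chr12:73146383-73160230, minus strand) had a log2 fold change of -0.22 and Six5 (chr7:18828519-18832474, plus strand) of 0.21. Both passed the adjusted p (0.00416 and 0.00239) but not the limit on the fold. Eya3 (chr4:132366298-132452076, plus strand), at 81.8 to 89.4 in these 6 libraries, had a log2 fold change of -0.07 (95% interval -0.15 to 0.02, adjusted p = 0.256). Dach2 (chrX:112207207-112746083, plus strand) had the lowest counts of the members, with 33 to 82 counts in every library of the study and 1.23 to 2.95 CPM. Its log2 fold change was 0.48 (adjusted p = 0.0446), under the limit on the fold, with overlapping libraries and calls in 2 of 12 alternatives.

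The ratio of Six2 to Dach1 counts within a library does not depend on scaling between libraries. Its geometric mean was 14.5 in Cap-L and 1.79 in Cap-B. For Eya4 over Eya1 the ratio was 1.16 in Cap-L and 0.268 in Cap-B. These pairs were picked with results known and carry no test.

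Promoter windows from RefSeq (build GRCm38.p6, a different build from the gene positions above) were at hand for 7 of the 9 members, in 10 windows. Eya1 and Eya2 had none. The 250 bases before the start are shown for Six2 and Dach1, which differed most between the sides, and for Six4, of whose 2 overlapping windows 1 holds the MEF3 box and is shown, a site in muscle promoters that Six4 and its relatives are known to bind. Capitals mark matches, on either strand, to the MEF3 box TCAGGTTTC, the TATA box TATAAA, the CCAAT box CCAAT and the GC box GGGCGG. The Six2 window lies at chr17:85688255-85688504, that Six4 window at chr12:73113246-73113495 and the Dach1 window at chr14:98169766-98170015, all on the minus strand and written 5′ to 3′.
Six2: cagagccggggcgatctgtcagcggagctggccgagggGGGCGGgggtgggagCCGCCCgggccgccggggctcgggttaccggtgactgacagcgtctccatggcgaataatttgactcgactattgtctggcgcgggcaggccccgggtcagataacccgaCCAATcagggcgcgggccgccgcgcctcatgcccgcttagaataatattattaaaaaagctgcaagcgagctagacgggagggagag
Six4: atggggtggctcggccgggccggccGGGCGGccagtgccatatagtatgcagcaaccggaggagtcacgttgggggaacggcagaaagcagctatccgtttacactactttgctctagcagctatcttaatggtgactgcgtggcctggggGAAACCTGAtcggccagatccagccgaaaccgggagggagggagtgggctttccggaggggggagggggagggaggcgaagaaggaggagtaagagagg
Dach1: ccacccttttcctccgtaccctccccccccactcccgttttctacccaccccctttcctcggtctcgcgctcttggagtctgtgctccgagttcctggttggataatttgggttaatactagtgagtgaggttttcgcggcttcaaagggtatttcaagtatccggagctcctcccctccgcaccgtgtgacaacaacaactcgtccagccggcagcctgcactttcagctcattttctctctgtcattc
The Six2 window holds 2 GC boxes and 1 CCAAT box, with 26 CpG dinucleotides and a GC content of 64.8%. The Dach1 window holds none of the 4 motifs, with 13 CpG dinucleotides and a GC content of 54.8%. The MEF3 box occurs in 1 of the 10 member windows, that of Six4, in reverse orientation, and in 0.387% of all 32851 windows. The shares of all windows with the other motifs were 32.7% for the GC box, 33.8% for the CCAAT box and 12.4% for the TATA box. These matches are letters in a window, not measured binding.

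**Figure D2:**
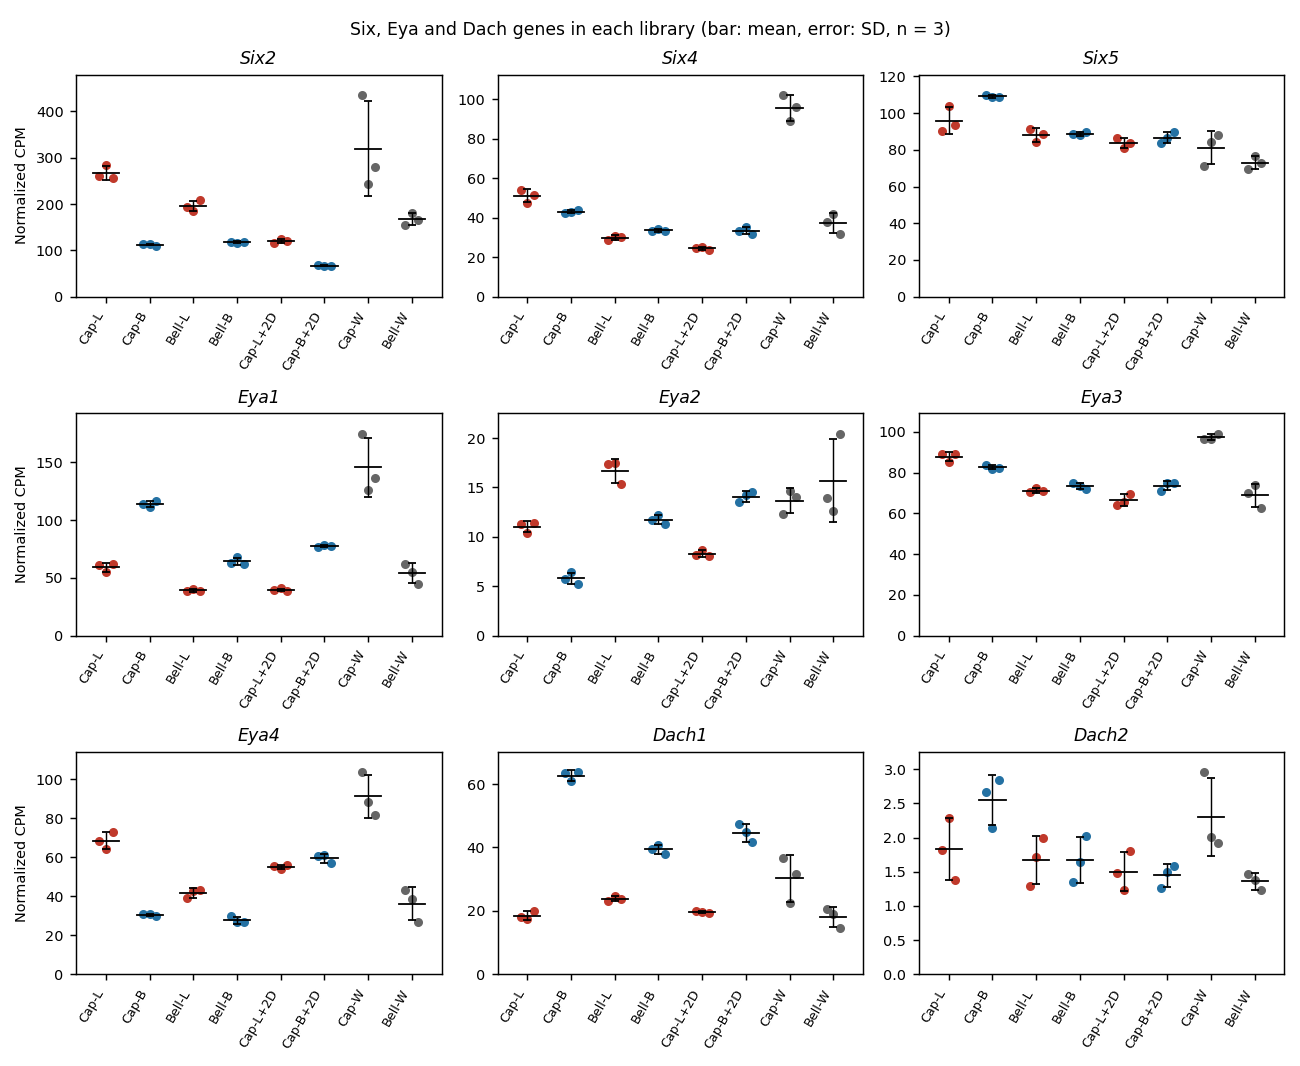
Level of each member in every library (points, normalized CPM on linear axes from 0) by group, with the mean (bar) and SD (error bar) of n = 3; lingual groups are red, buccal groups blue and undivided groups grey. Six2 is higher in each lingual group than in its buccal partner, Dach1 and Eya1 are lower, and Eya2 changes sides between Cap-B and Cap-B+2D.

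At the bell stage the same 5 members were called on the same sides. They were 5 of 9 against 12.9% of all genes tested, and the libraries of the sides did not overlap for 6 members against 45.5% of all genes. Six2 stood at 194.4, 184.9 and 208.2 in Bell-L and at 118.8, 115.0 and 118.6 in Bell-B (log2 fold change -0.74 ± 0.0357, adjusted p = 5.85e-21). Dach1 stood at 23.1, 24.6 and 23.7 in Bell-L and at 39.6, 40.7 and 38.0 in Bell-B (0.73 ± 0.0505, adjusted p = 8.23e-16). No library of one side reached the range of the other for either gene. Eya1 (0.71 ± 0.0428, adjusted p = 7.90e-18) was again the buccal Eya gene, and Eya4 (-0.59 ± 0.0517, adjusted p = 1.15e-12) was again lingual. Eya2 lay at the limit on the fold (-0.50 ± 0.0699, adjusted p = 1.06e-07) and was called in 8 of 12 alternatives. Six4, not called, was higher in the buccal part here (0.17 ± 0.0498, adjusted p = 0.00632), unlike at the cap stage.

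Each of the 5 called side differences was smaller at the bell stage than at the cap stage. The interaction of side with stage, tested with edgeR over 12 libraries at an adjusted p under 0.05, was called for 7 of 9 members against 32.5% of all genes. The buccal over lingual difference moved by -1.06 ± 0.0766 for Dach1 (log2, adjusted p = 2.43e-12), by 0.55 ± 0.0798 for Eya4 (adjusted p = 2.59e-06) and by 0.48 ± 0.0621 for Six2 (adjusted p = 3.35e-07). All 3 differences came closer to 0. When all 24 libraries entered 1 fit, 3 interactions were called, those of Six4, Eya4 and Dach1, against 2581 of all 23402 genes tested.

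After culture for 2 days, Six2 remained lingual and Dach1 and Eya1 remained buccal, while Eya2 was on the other side and Eya4 no longer met the limits. Six4, lower in the buccal part at the cap stage, was higher there after culture (log2 fold change 0.44 ± 0.0554, adjusted p = 1.90e-07). It stayed under the limit on the fold. In all 4 of 9 members were called against 25.1% of all genes, and the sides did not overlap for 7 members against 59.1%. Six2 stood at 116.9, 124.7 and 119.9 in Cap-L+2D and at 68.5, 67.2 and 65.5 in Cap-B+2D (log2 fold change -0.85 ± 0.0409, adjusted p = 2.22e-15). Dach1 stood at 20.0, 19.8 and 19.2 in Cap-L+2D and at 47.3, 44.8 and 41.6 in Cap-B+2D (1.18 ± 0.0563, adjusted p = 2.12e-15). Eya1 stood at 39.4, 40.8 and 38.9 in Cap-L+2D and at 76.3, 78.0 and 77.5 in Cap-B+2D (0.95 ± 0.0433, adjusted p = 7.18e-16). The 3 genes kept the direction seen in the uncultured parts, with no overlap between the sides.

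Eya2 reached 13.5, 14.2 and 14.5 in Cap-B+2D and 8.13, 8.68 and 8.02 in Cap-L+2D, so that each buccal library was above each lingual one (0.76 ± 0.0757, adjusted p = 4.02e-09). Eya4 stood at 60.5, 61.3 and 57.0 in Cap-B+2D and at 55.7, 54.0 and 55.9 in Cap-L+2D (0.10, 95% interval 0.02 to 0.19, adjusted p = 0.0508). The interaction of side with culture was called for 6 of 9 members against 35.5% of all genes, and was largest for Eya2 (1.66 ± 0.12, adjusted p = 1.72e-12) and Eya4 (1.24 ± 0.0708, adjusted p = 7.00e-15). For Eya1 the side difference moved by -0.02 (95% interval of -0.15 to 0.11, adjusted p = 0.854).

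**Figure D3:**
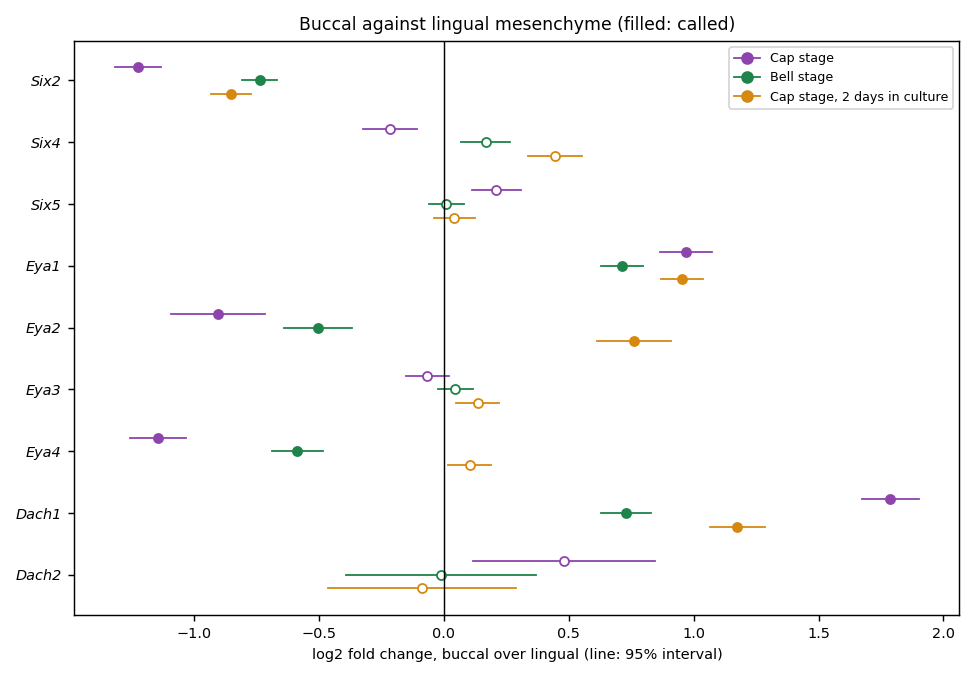
Log2 fold changes, buccal over lingual, of the 9 members at the cap stage, at the bell stage and after culture, with 95% intervals (lines); filled points were called. Six2 lies left of 0 and Eya1 and Dach1 right of 0 in all 3 comparisons, and Eya2 moves from -0.90 at the cap stage to 0.76 after culture.

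Skeletal muscle markers differed between the sides and rose in culture. The sum of 12 markers was 26.3 to 27.1 in Cap-L, 285 to 302 in Cap-B, 143 to 154 in Bell-L, 1158 to 1184 in Bell-B, 384 to 409 in Cap-L+2D and 4710 to 4985 in Cap-B+2D. All 11 muscle markers tested at the cap stage, and all 12 at the bell stage and in culture, were higher in the buccal part; only Myf6 was at 0 in a whole group, Cap-L. The 5 Schwann cell and glia markers summed to 25.1 to 25.9 in Cap-L, 58.9 to 62.7 in Cap-B, 15.2 to 16.0 in Cap-L+2D and 96.1 to 99.3 in Cap-B+2D. That sum hides disagreement among these markers. From Cap-B to Cap-B+2D, 1 of the 5 was called higher and 4 lower, with a median log2 fold change of -1.69. Between the cultured parts, 3 of the 5 passed the filter, and all 3 were called higher in the buccal part. The 6 bone markers went the other way, with 964 to 984 in Cap-L, 445 to 462 in Cap-B, 2312 to 2343 in Cap-L+2D and 563 to 584 in Cap-B+2D. The 8 epithelial markers summed to 438 to 484 in Cap-L, 312 to 326 in Cap-B, 310 to 340 in Cap-L+2D and 88.4 to 88.6 in Cap-B+2D. Endothelial markers (5 genes) summed to 408 to 428 in Cap-L, 369 to 382 in Cap-B, 367 to 370 in Cap-L+2D and 152 to 157 in Cap-B+2D. The part of these cells in the members' differences was not tested.

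**Figure D4:**
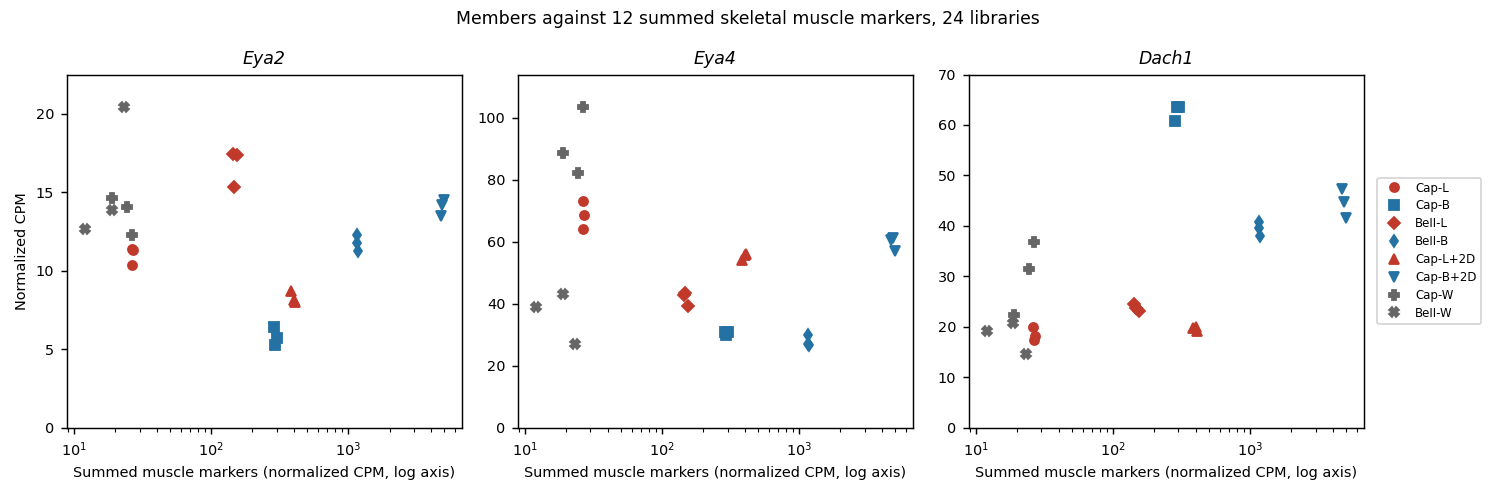
Levels of Eya2, Eya4 and Dach1 (normalized CPM, linear axis from 0) in the 24 libraries against the sum of 12 skeletal muscle markers (normalized CPM, log axis); symbols mark the groups. Cap-B+2D libraries lie farthest right, between 4710 and 4985, and the Cap-L, Cap-W and Bell-W libraries lie farthest left, between 12.0 and 27.1.

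From the cap to the bell stage, Eya1 fell and Eya2 rose on both sides. Six4 and Eya4 were also called in the lingual part, and Dach1 and Dach2 in the buccal part. Between Cap-L and Bell-L, 4 of 9 members were called against 20.0% of all genes, and the stages did not overlap for 7 members against 55.9%. Six4 went from 54.1, 47.5 and 51.4 to 28.6, 31.0 and 30.2 (log2 fold change -0.76 ± 0.0566, adjusted p = 2.98e-11). Eya4 changed by -0.70 ± 0.0536 (adjusted p = 4.58e-11), Eya1 by -0.59 ± 0.053 (adjusted p = 1.10e-09) and Eya2 by 0.61 ± 0.0755 (adjusted p = 2.42e-07). Six2 had a log2 fold change of -0.44 and Dach1 of 0.37, each under the limit on the fold, as was Six4 in the buccal part (-0.37, adjusted p = 7.70e-08). For Dach2 the interaction of side with stage was not called (adjusted p = 0.182).

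In the buccal part 4 of 9 members were called between the stages, against 18.7% of all genes, and none of the 9 overlapped between the stages, against 55.4% of all genes without overlap. Eya1 changed by -0.84 ± 0.0381 (adjusted p = 8.80e-19) and Dach1 by -0.68 ± 0.0464 (adjusted p = 4.26e-14). Eya2 went from 5.69, 6.41 and 5.26 in Cap-B to 11.8, 12.3 and 11.3 in Bell-B (1.014 ± 0.0875, adjusted p = 1.29e-11), with no overlap. Dach2 had -0.62 ± 0.175 (adjusted p = 0.00366), from low counts. Six2 stayed within 110.4 to 118.8 in these 6 libraries (0.05, 95% interval -0.01 to 0.12, adjusted p = 0.206).

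Culture was compared with the uncultured cap-stage part of the same side. In the lingual part 3 of 9 members were called, all lower, against 35.4% of all genes called and 15.9% called lower. The libraries did not overlap for 7 members against 67.5% of all genes. The shares called in either direction and not overlapping were near the background, but the share called lower was above it. Six2 fell from a mean of 267 ± 14.9 to 121 ± 3.95 (-1.14 ± 0.0497, adjusted p = 2.39e-16). Six4 fell from 51.0 ± 3.30 to 24.4 ± 0.779 (-1.06 ± 0.0576, adjusted p = 2.59e-14), and Eya1 from 59.3 ± 3.96 to 39.7 ± 0.954 (-0.57 ± 0.0527, adjusted p = 7.44e-10). Without TMM scaling, on library size alone, 5 members were called, Eya2 and Eya3 in addition, against 38.9% of all genes, and the median gene moved by -0.15 (log2).

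The buccal part had 6 of 9 members called after culture, against 34.5% of all genes, and 9 did not overlap against 69.0%. Eya2 rose from 5.79 ± 0.58 to 14.1 ± 0.522 (1.26 ± 0.0842, adjusted p = 7.65e-15) and Eya4 from 30.5 ± 0.559 to 59.6 ± 2.30 (0.95 ± 0.0481, adjusted p = 6.16e-18). Six2 fell from 112.5 ± 1.83 to 67.0 ± 1.52 (-0.77 ± 0.0358, adjusted p = 6.75e-19), and Eya1 by 0.58 on the log2 scale (adjusted p = 2.87e-15). Dach1 changed by -0.51 ± 0.0453 (adjusted p = 1.00e-11) and was called in 10 of 15 alternatives, and Dach2 by -0.84 ± 0.177 (adjusted p = 9.85e-05).

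Cultured parts were also set against the bell-stage part of the same side, as the stage an undisturbed germ reaches. Of the 9 members, 2 were called in the lingual part (31.2% of all genes) and 2 in the buccal part (31.8%), so neither share was above the background. The libraries did not overlap for 6 members (67.3% of all genes) and 5 members (66.8%). Six2 was lower in culture on both sides, by -0.70 ± 0.0498 in the lingual part (adjusted p = 6.45e-12) and by -0.82 ± 0.0352 in the buccal part (adjusted p = 7.13e-20). Eya2 was lower in Cap-L+2D than in Bell-L (-1.014 ± 0.0792, adjusted p = 4.12e-11), and Eya4 was higher in Cap-B+2D than in Bell-B (1.09 ± 0.0471, adjusted p = 9.01e-20). Both comparisons of a side shared libraries with those above.

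**Figure D5:**
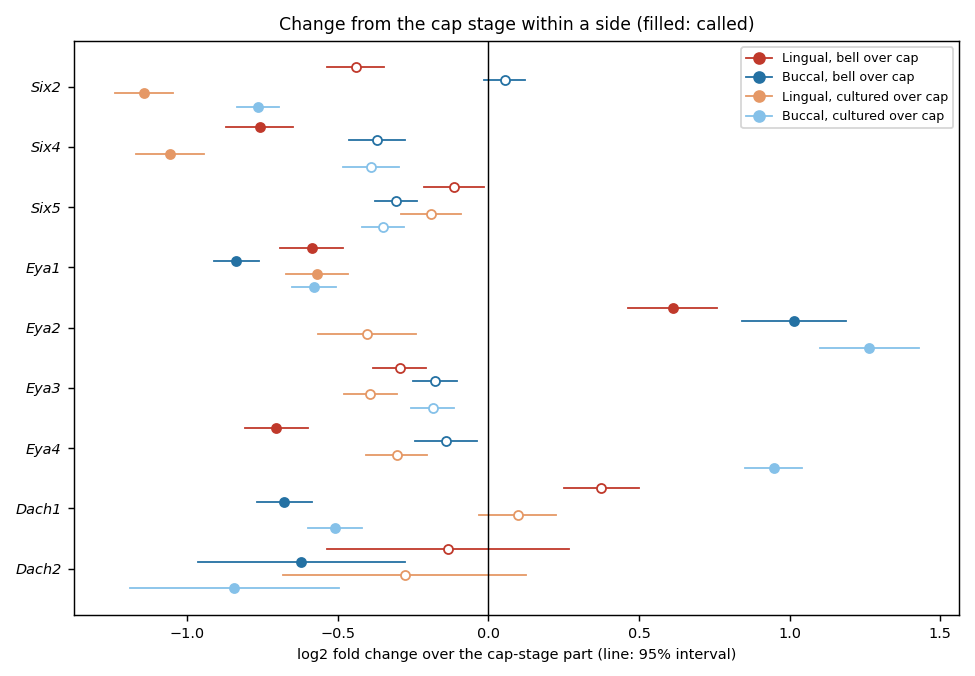
Log2 fold changes of the 9 members over the cap-stage part of the same side, at the bell stage and after 2 days of culture, with 95% intervals (lines); filled points were called. Eya1 lies left of 0 in all 4 comparisons, while Eya2 lies right of 0 in 3 and at -0.40, not called, in the cultured lingual part.

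In the undivided mesenchyme, 6 members were called between the stages, all lower at the bell stage. These 6 of 9 compare with 14.5% of all genes called in either direction and 4.21% called lower, and the stages did not overlap for 7 members against 36.8% of all genes. Six4 went from 102.3, 89.1 and 95.9 in Cap-W to 38.0, 42.1 and 31.9 in Bell-W (-1.37 ± 0.125, adjusted p = 0.000724). Eya1 went from 174.9, 126.1 and 136.2 to 62.3, 55.3 and 44.8 (-1.44 ± 0.165, adjusted p = 0.00158), and Eya4 from 103.6, 88.7 and 82.0 to 43.1, 38.9 and 26.96 (-1.34 ± 0.183, adjusted p = 0.00289). For these 3 genes the stages did not overlap and the call held in all 12 alternatives. Six2 had -0.94 ± 0.205 (adjusted p = 0.0198), Dach1 -0.74 ± 0.205 (adjusted p = 0.0471) and Eya3 -0.52 ± 0.102 (adjusted p = 0.0132); these were called in 9, 6 and 6 of 12 alternatives. Without Bell-W replicate 3, the library with the high epithelial sum, or without Bell-W replicate 1, 3 members were called, Six4, Eya1 and Eya4. Over all genes, 2928 of 21572 tested were called without Bell-W replicate 3 and 2334 of 21414 without Bell-W replicate 1. Macrophage markers (5 genes) summed to 20.7 to 25.2 in Cap-W and 109 to 122 in Bell-W, endothelial markers to 171 to 183 and 334 to 431, and erythroid markers (4 genes) to 834 to 1079 and 55.8 to 89.3. Of the latter, the 3 embryonic globins were called lower in Bell-W and Alas2, the erythroid enzyme of haem synthesis, was called higher (mean 13.3 to 52.9). The part of these cells in these differences was not tested.

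The members' levels in undivided mesenchyme did not always lie between those of its parts. In Cap-W the mean was above both parts for 6 of 9 members (38.5% of all genes) and below both for Six5 (38.1%). For Six4 it was 95.8 ± 6.60 against 51.0 ± 3.30 in Cap-L and 43.1 ± 0.701 in Cap-B (SD, n = 3). Over all 23402 genes above the filter, the mean lay outside the range of the parts for 76.6% in Cap-W and 74.5% in Bell-W, where 5 members lay outside. With 7 members outside in Cap-W, the shares of members outside were near those of all genes or below them. Muscle markers summed to 18.9 to 26.3 in Cap-W and 12.0 to 23.0 in Bell-W, below Cap-B and both bell-stage parts, and the part of such cells was not tested.

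Other genes of the network were described with a list of 29 genes, holding Pax and teashirt genes, Groucho corepressors, Ski genes and genes known as targets or regulators. Between Cap-B and Cap-L, 10 of 26 tested were called higher in the buccal part and 3 lower (10.4% and 7.10% of all genes), with a median log2 fold change of 0.13 against -0.01 over all genes. At the bell stage 10 of 26 were higher and 3 lower (6.00% and 6.88% of all genes). The muscle regulators Pax7 (5.40), Myod1 (4.80) and Myog (3.58) led at the cap stage (log2 fold change, buccal over lingual), and Myod1 and Myog are also in the muscle list. Osr1, an odd-skipped transcription factor, followed at 1.45. In Cap-L, Pax7 lay at 0.0707 to 0.111 CPM, around the floor of 3 counts, and Myod1 at 0.43 to 0.53 CPM. The sizes and order of these folds are therefore imprecise. After culture 6 of 25 were called higher in the buccal part and 5 lower (12.5% of all genes each way). The muscle regulators were again higher in the buccal part. Pax7 had a mean of 2.32 in Cap-L+2D and 35.4 in Cap-B+2D, Myod1 of 8.44 and 107.3, and Myog of 23.6 and 294.4. Among the 5 called lower were the forkhead gene Foxc2 (-2.62) and Sall1 (-1.27, means 1.78 and 0.731). Sall1 is a zinc finger gene that acts with Six2 in kidney progenitors. In the undivided mesenchyme 6 of 25 were called, all lower at the bell stage, against 14.5% of all genes called and 4.21% called lower.

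Over 24 libraries, which share groups and preparation, the gene most like Six2 among 13737 candidates was Fras1 (Pearson r = 0.97 on log2 CPM), which encodes a basement membrane protein of the Fraser complex. Prr16 followed Dach1 most closely (0.95), Sema6a followed Eya4 (0.94), Ttc3 followed Eya1 (0.94) and Fry followed Eya2 (0.93). Kpnb1, a nuclear import receptor, was most like Six4 (0.97), Supt20 most like Eya3 (0.95), Vps9d1 most like Six5 (0.90) and Gpbp1l1 most like Dach2 (0.77). Nothing on shared control follows from these values.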

How the data were processed

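The authors trimmed, aligned and counted paired reads and deposited 1 table of raw counts per gene for 24 libraries. Per the file headers, featureCounts 2.0.0 counted over exons of Ensembl release 107 (GRCm39) without a strand option. The submitters' processing notes name Trimmomatic 0.39, Bowtie 1.2.3 and Subread 2.0.3, and the labels and the paper name different library kits. Libraries were grouped by their titles. Counts were fitted in R 4.3.3 with edgeR 4.0.16 (TMM, filterByExpr, quasi-likelihood test, Benjamini-Hochberg adjustment over all genes tested), with 6 libraries per fit, 9 for groups of a side and 12 for interactions. A gene was called if its adjusted p was under 0.05 and its log2 fold change exceeded 0.5 in size; interactions had no limit on the fold. The alternatives included DESeq2 1.42.0. The depth of 20581720 to 39266497 counts put a floor of 3 counts at 0.0764 to 0.146 CPM, for counting error only. All 9 members are named, though not each of them in every comparison. Network genes are named by the largest changes among those called (after culture, in each direction), and like genes by Pearson r. The scripts were tested on simulated data. The members and lists were chosen with earlier results of these data known. Imaging and transplantation data were not used here.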

Additional observations from a re-analysis of the deposited data

Results flagged for a closer look

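In edgeR's interaction test over 12 libraries, the buccal over lingual difference changed between stages for 7 of 9 members, against 32.5% of all genes. On the log2 scale, positive toward the buccal side, it moved by 0.48 for Six2, 0.38 for Six4, -0.20 for Six5, -0.26 for Eya1, 0.39 for Eya2, 0.55 for Eya4 and -1.06 for Dach1. For Six5 the call held in 14 of 18 alternatives, the fewest of the 7. With all 24 libraries in 1 fit, only Six4, Eya4 and Dach1 were called.

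Between uncultured and cultured cap-stage parts the side difference changed for 6 of 9 members, against 35.5% of all genes. It moved by 0.37 for Six2, 0.66 for Six4, 1.66 for Eya2, 0.20 for Eya3, 1.24 for Eya4 and -0.62 for Dach1. The calls of Six2 and Eya3 held in 17 of 18 alternatives. Both sets share the Cap-L and Cap-B libraries.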

How the results depend on the processing

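Of 1566 values for single members under alternatives, 1491 kept direction and side of the threshold, 36 lost a call, 11 gained one and 28 turned direction. Leaving out 1 library gave 3 to 5 members called between Bell-W and Cap-W, and 1758 to 3057 of all genes (21414 to 21796 tested). With no limit on the fold, 8 of 9 members were called for Cap-B against Cap-L (42.3% of all genes), 7 for Bell-L against Cap-L (50.1%), 7 for Cap-L+2D against Cap-L (65.9%), 5 for Cap-L+2D against Bell-L (61.3%), 8 for Bell-B against Cap-B (48.0%) and 5 for Cap-B+2D against Bell-B (65.7%), so that both counts of 5 were below the share of all genes. On library size alone, 5 were called for Cap-L+2D against Cap-L (38.9% of all genes), where the median gene moved by -0.15 (log2) and the share of calls that were higher went from 55.3% to 40.4%; for Cap-L+2D against Bell-L the median moved by -0.11 and that share went from 46.3% to 35.1%. With all 24 libraries in 1 fit, 3 of the 9 interactions of side with stage were called, against 2581 of all 23402 genes. The cause was not tested. Over all genes, 3037 were called between Bell-W and Cap-W, against 1758 without Cap-W replicate 3, 1832 without Bell-W replicate 2 and 5887 with all 24 libraries in 1 fit. That fit called 2581 genes in place of 7137 for the interaction of side with stage, and 4048 in place of 7842 for that with culture.

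Turned directions were all of uncalled values. For Dach2 between Bell-B and Bell-L, library size alone gave 0.0108 and the replicate block 0.0023. Library size alone gave -0.0544 for Dach1 between Cap-L+2D and Cap-L, -0.0955 for Eya1 between Cap-L+2D and Bell-L and 0.0557 for the interaction of Eya1 with culture, which was 0.0172 with all 24 libraries. Between Cap-B+2D and Bell-B, no filter gave 0.0003 for Six4 and 0.0125 for Eya3, which was 0.0037 with RLE and with DESeq2 and 0.0028 with all 24 libraries.

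Leaving out 1 library gave ranges of -0.062 to 0.3176 for Eya2 between Bell-W and Cap-W, -0.0221 to 0.0363 for Six5 and -0.176 to 0.1447 for Dach2 between Bell-B and Bell-L, -0.216 to 0.0876 for Dach2 between the cultured parts, -0.304 to 0.0757 for Dach2 between Bell-L and Cap-L, -0.0019 to 0.0382 for Eya1 and -0.3188 to 0.0115 for Dach2 between Cap-L+2D and Bell-L, -0.0576 to 0.0145 for Six4 and -0.0224 to 0.0196 for Eya3 between Cap-B+2D and Bell-B, and -0.0475 to 0.0337 for the interaction of Eya1 with culture.

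Same-numbered libraries were not paired by the labels, and in no comparison did all 3 pairs correlate above 0.1. The replicate block changed no count of members called. Every library correlated best with its own number only for Bell-W with Cap-W (0.0632 to 0.0991) and Bell-B with Cap-B (0.0257 to 0.0528). These correlations are too small to establish a pairing.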
